A study of Mus musculus with 48 samples.

Results

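The genes of the Prader-Willi and Angelman imprinted locus on mouse chromosome 7 were described in RNA sequencing libraries of the right amygdala. The 8 members, Snrpn, Snurf, Snhg14, Ube3a, Ndn, Magel2, Mkrn3 and the small nucleolar RNA gene Gm26498, were taken by symbol from the 52636 genes of the deposited table, and each matched 1 identifier. Gm26498 was chosen by its measured difference between imipramine and vehicle in heterozygous mice, so its values there, and in comparisons that share those libraries, are a description. The 48 libraries came from female mice of the strain labelled C57BL/6NTac-Brd1, aged 8 to 11 weeks, in 6 groups of 8. Heterozygous mice, written Brd1+/-, held 1 targeted allele of Brd1, made with a vector whose loxP sites flank exons 3 to 5, and WT mice were their litter-matched controls. Mice of each genotype received vehicle (saline), imipramine (IMN, a tricyclic antidepressant, 10 mg/kg) or fluoxetine (FLX, a selective serotonin reuptake inhibitor, 5 mg/kg) under the skin on 2 consecutive days. Every mouse, controls included, also went through tail suspension, an open field and a forced swim, and the brain was taken 1 h after the swim. Each library is a 1 mm punch of tissue, and fewer cells of a type and less RNA per cell cannot be told apart in it. Levels are in TPM, the share of a library's transcripts after division by gene length, which in principle allows levels of different genes to be compared. For Gm26498 and Snurf this is limited, since their reads can also belong to other genes.

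Imprinted genes are read from the copy of 1 parent. In neurons, the paternal chromosome makes Snrpn, Snurf, Ndn, Magel2, Mkrn3 and a very long transcript, Snhg14, that carries the small nucleolar RNAs in its introns and runs into Ube3a from the other side, while Ube3a is made from the maternal copy. Loss of the paternal genes causes Prader-Willi syndrome, marked by overeating and hypothalamic dysfunction, and loss of maternal UBE3A causes Angelman syndrome. Snrpn encodes SmN, a splicing protein abundant in brain, and Snurf a small protein read from the same transcript. Ube3a is a ubiquitin ligase. Ndn (necdin) and Magel2 are MAGE-family proteins, and Mkrn3 is a makorin ring-finger protein known for holding back puberty.

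All members lie on chromosome 7 of GRCm38 (GENCODE M21 annotation). From the Ube3a end, Ube3a spans chr7:59228750-59311536 on the plus strand, and Snhg14 spans chr7:59307924-59975759 on the minus strand, 667836 bp with 75 annotated exons. Gm26498, 79 bp at chr7:59386081-59386159 on the minus strand, lies inside the Snhg14 span. Snrpn follows at chr7:59982495-60140219 and Snurf at chr7:59995449-60005049, both on the minus strand. Further along are the single-exon genes Ndn (chr7:62346569-62350262, plus), Magel2 (chr7:62377010-62381640, plus) and Mkrn3 (chr7:62417593-62420139, minus). Several of these genes share bases, which limits how their values can be separated. All 216 exonic bases of Snurf belong to Snrpn too, and to the overlapping gene Gm38393, and the last of these shares 589 exonic bases with Snrpn. Ube3a and Snhg14 overlap in 1803 exonic bases on opposite strands. Whether reads were counted by strand is not given in the sources used here, so reads of that overlap cannot be assigned.

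The locus is dense in near-identical small nucleolar RNA copies, and the sequences show why Gm26498 is hard to measure by itself. Within the Snhg14 span, 134 copies had the length of SNORD115 and 70 that of SNORD116. The SNORD115 family is known for a stretch complementary to the serotonin receptor mRNA Htr2c, which in the sequences printed is in capitals (bases 53 to 70, 18 bases). Gm26498 and Gm26230 (chr7:59368236-59368314, minus) are identical in all 79 bases. Gm24966 (chr7:59344073-59344151, minus) is the copy with the highest level. Gm24866 (chr7:59393561-59393639, minus) carries the commonest sequence, held by 33 copies. The last line is the matching site in an Htr2c transcript, on the X chromosome, with its complementary bases in capitals.
Gm26498: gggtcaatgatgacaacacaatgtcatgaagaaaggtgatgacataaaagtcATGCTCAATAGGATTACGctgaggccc
Gm26230: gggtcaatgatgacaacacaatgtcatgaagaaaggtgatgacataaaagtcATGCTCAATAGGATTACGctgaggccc
Gm24966: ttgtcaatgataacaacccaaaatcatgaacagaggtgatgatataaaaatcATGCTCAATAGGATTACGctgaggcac
Gm24866: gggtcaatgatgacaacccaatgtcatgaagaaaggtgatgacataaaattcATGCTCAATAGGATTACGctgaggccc
Htr2c site: gcaataCGTAATCCTATTGAGCATagccgg
The complementary bases are the same in all of these copies, and 105 of the 134 SNORD115-length copies hold them. Gm26498 differs from the commonest sequence by 2 edits and from Gm26230 by 0, whereas Gm24966 is 9 edits from its nearest copy. The reads were 50 bases long. None of the 30 windows of 50 bases in Gm26498 is its own among the copies, against 30 of 30 in Gm24966.

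The promoters of Snrpn, Ndn and Magel2 are shown because Ndn and Magel2 moved together across libraries and Snrpn is the most abundant member. Each line gives the 250 bases before an annotated start, from RefSeq on GRCm38.p6: Snrpn at chr7:60140226-60140475 (minus), Ndn at chr7:62348027-62348276 (plus) and Magel2 at chr7:62376729-62376978 (plus). Capitals mark CGCATGCG, the core of a motif of the NRF1 type. These 8 letters read the same on both strands, and they were chosen after the sequences were seen.
Snrpn promoter: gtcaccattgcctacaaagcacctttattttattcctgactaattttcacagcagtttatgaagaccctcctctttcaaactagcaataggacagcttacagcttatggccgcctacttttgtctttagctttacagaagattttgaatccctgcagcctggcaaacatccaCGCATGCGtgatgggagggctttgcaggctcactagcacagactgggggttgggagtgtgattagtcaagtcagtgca
Ndn promoter: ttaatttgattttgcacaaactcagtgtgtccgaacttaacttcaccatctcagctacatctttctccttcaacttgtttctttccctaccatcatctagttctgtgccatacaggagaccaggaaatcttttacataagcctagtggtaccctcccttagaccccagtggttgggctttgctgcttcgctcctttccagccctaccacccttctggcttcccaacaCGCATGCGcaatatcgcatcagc
Magel2 promoter: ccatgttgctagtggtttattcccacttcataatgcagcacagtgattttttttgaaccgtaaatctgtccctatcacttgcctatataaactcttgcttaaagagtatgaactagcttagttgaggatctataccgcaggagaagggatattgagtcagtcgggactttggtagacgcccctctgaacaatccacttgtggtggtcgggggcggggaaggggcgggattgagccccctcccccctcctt
Among 8 promoter windows of 7 members, 5 held the motif, all of them windows of Snrpn, Snhg14, Snurf or Ndn. These windows have 300 bases, and in the one shared by Snrpn and Snurf the motif begins at base 287, past the annotated start. The Snrpn line printed is 1 of its 4 windows. Of 32851 promoter windows of 300 bases, 615 (1.872%) held it. The windows of Ube3a, Magel2 and Mkrn3 did not contain these letters. The 4 Snrpn windows belong to 1 gene, and 2 of them are shared with Snhg14 or Snurf, so they are not separate observations. The Snrpn windows other than the one shared with Snurf also carry near-identical bases around the motif.

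Brd1, the targeted gene, was lower on average in the heterozygous group under each injection, with means of 25.95 ± 2.90 against 35.6 ± 5.09 TPM under vehicle, 23.4 ± 4.84 against 36.9 ± 2.83 under IMN and 23.5 ± 3.49 against 32.9 ± 4.45 under FLX (SD, n = 8 each). It passed the limma test after Benjamini-Hochberg adjustment under FLX (adjusted p = 0.0362) and missed it under vehicle (0.0512) and IMN (0.102). All 7 amygdala markers were expressed, but the punches varied in these markers and in markers of other cells and tissues. Summed amygdala markers ran from 157 to 1705 TPM. The summed level of the striatal markers ran from 101 to 7290 TPM. Deviations of their score from the group mean ran from -3.54 to 3.87. The libraries were cut into 35 and 13 at the widest step among the higher deviations, from 1.46 to 2.12. The cut is thus relative to the group mean, and whether the sets are distinct kinds of punch was not tested. Each group held 1 to 3 of the 13. Summed oligodendrocyte markers ran from 642 to 16268 TPM. Choroid plexus markers had the widest range, from 7.39 to 29502 TPM, and their score was not among the covariates fitted below. Vehicle and drug mice carry sample codes in separate ranges, and what the codes stand for is not given in the sources used here, so whatever differs between the ranges and the drug cannot be told apart. TPM values hold no read depth, so counting error is unknown.

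All 8 members were above 0 in all 48 libraries, and their mean levels spanned a wide range. Snrpn was the most abundant, at 494 ± 83.6 TPM (SD, n = 48), and Ndn was next at 242 ± 109 TPM. Ube3a (52.6 ± 11.8 TPM) and Snhg14 (40.9 ± 7.79 TPM) lay close together. Magel2 averaged 15.7 ± 13.1 TPM, Snurf 13.8 ± 4.71 TPM, Gm26498 5.85 ± 3.37 TPM and Mkrn3 1.23 ± 0.68 TPM. The highest library exceeded the lowest by 2.52-fold for Snrpn, 2.55-fold for Snhg14 and 2.83-fold for Ube3a. It did so by 6.16-fold for Snurf, 8.62-fold for Ndn, 23.2-fold for Mkrn3, 35.03-fold for Gm26498 and 177-fold for Magel2, so 3 of the 4 widest ranges were among the 4 least abundant members. When the 6 group means of each gene were ordered, neighbouring groups overlapped in their libraries and differed by less than the smaller of their SDs in 40 of 40 pairs. Ordering puts the closest means side by side, so this does not describe groups farther apart. Mean Ndn, for example, was 316 ± 126 TPM in WT FLX and 193 ± 66.4 TPM in Brd1+/- FLX (SD, n = 8 each).

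**Figure D1:**
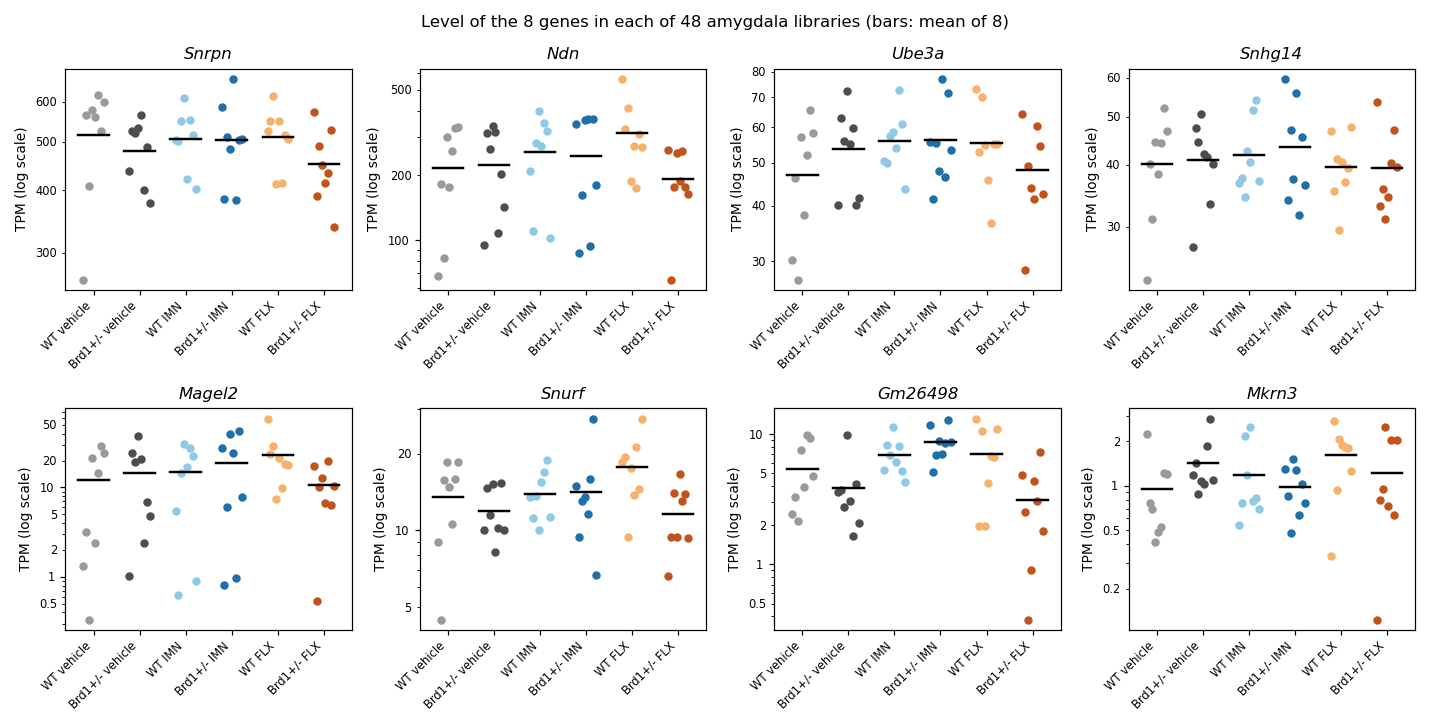
Level of each member in TPM (log axis) in every library of the 6 groups, with a bar at the mean of 8. Snrpn stays between 265 and 668 TPM, whereas Magel2 runs from 0.333 to 59.0 TPM and the groups overlap for every gene.

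Snrpn and its companion Snurf, which make a splicing protein and a short peptide from 1 transcript, had group means within a narrow range for Snrpn and a wider one for Snurf. Mean Snrpn was 515 ± 120.1 TPM in WT vehicle, 479.9 ± 68.1 in Brd1+/- vehicle, 507 ± 68.7 in WT IMN, 503 ± 95.3 in Brd1+/- IMN, 510.4 ± 69.4 in WT FLX and 451 ± 76.3 in Brd1+/- FLX (SD, n = 8 each). The lowest Snrpn library, at 265 TPM, was WT vehicle replicate 1, in a group whose median was 563 TPM. That library also had the highest choroid plexus score and the lowest neuronal score of its group. Mean Snurf was 13.5 ± 5.00 TPM in WT vehicle, 11.9 ± 2.80 in Brd1+/- vehicle, 13.9 ± 3.08 in WT IMN, 14.1 ± 6.19 in Brd1+/- IMN, 17.7 ± 5.42 in WT FLX and 11.6 ± 3.35 in Brd1+/- FLX. Snurf in WT FLX had a lowest library of 9.40, a median of 18.1 and a highest of 27.4 TPM, against 6.63, 11.3 and 16.7 TPM in Brd1+/- FLX, so the groups overlapped although the WT median lay above every Brd1+/- library.

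Snhg14, the host transcript of the small nucleolar RNAs, had the narrowest range of group means of the 8 members. Its means were 40.1 ± 9.18 TPM in WT vehicle, 40.9 ± 7.53 in Brd1+/- vehicle, 41.9 ± 7.24 in WT IMN, 43.5 ± 10.4 in Brd1+/- IMN, 39.7 ± 5.92 in WT FLX and 39.4 ± 7.63 in Brd1+/- FLX. Ube3a, the ligase it overlaps from the other strand, had means of 46.8 ± 13.9, 53.5 ± 11.9, 55.9 ± 8.76, 56.1 ± 12.4, 55.4 ± 11.9 and 48.1 ± 11.5 TPM in the same order. The ratio of Ube3a to Snhg14 within a library averaged 1.16 ± 0.149 in WT vehicle, 1.31 ± 0.144 in Brd1+/- vehicle, 1.35 ± 0.161 in WT IMN, 1.31 ± 0.204 in Brd1+/- IMN, 1.41 ± 0.303 in WT FLX and 1.22 ± 0.203 in Brd1+/- FLX. The ratios of all groups overlapped.

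Ndn and Magel2, both MAGE-family genes, had the highest WT FLX means and the lowest Brd1+/- FLX means of the 6 groups. Ndn had a lowest, median and highest library of 175, 294 and 564 TPM in WT FLX and of 65.4, 182 and 263 TPM in Brd1+/- FLX. In the other groups the Ndn medians were 221 TPM (WT vehicle), 234 (Brd1+/- vehicle), 278 (WT IMN) and 263 (Brd1+/- IMN), with libraries between 67.8 and 397 TPM. Magel2 had a lowest, median and highest library of 7.38, 19.7 and 59.0 TPM in WT FLX and of 0.533, 10.3 and 19.9 TPM in Brd1+/- FLX. Both genes overlapped between these groups. Magel2 medians elsewhere were 8.90 TPM (WT vehicle), 13.02 (Brd1+/- vehicle), 15.7 (WT IMN) and 15.9 (Brd1+/- IMN), with libraries from 0.333 to 43.2 TPM. Mkrn3, the ring-finger gene, was low in every group, with medians of 0.733, 1.14, 0.806, 0.942, 1.81 and 0.870 TPM in the order WT vehicle, Brd1+/- vehicle, WT IMN, Brd1+/- IMN, WT FLX and Brd1+/- FLX.

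Across 7 comparisons between pairs of groups and 2 genotype by drug interactions, 0 of 8 members passed the limma test in 8 of the 9. The exception was Gm26498 under IMN in heterozygous mice, the comparison by which it was chosen. Gm26498 is counted among the 8 throughout, but it is only a description wherever the Brd1+/- vehicle or Brd1+/- IMN libraries are used. For genotype, 0 of 8 were called under vehicle, where 0.708% of all genes tested were, 0 of 8 under IMN (0.0170%) and 0 of 8 under FLX (1.54%). For drug in WT mice, 0 of 8 were called for IMN (0% of all genes) and 0 of 8 for FLX (0.335%). For drug in Brd1+/- mice, 1 of 8 was called for IMN (0.776%) and 0 of 8 for FLX (0.731%). For the interactions, 0 of 8 were called with IMN (0.536%) and 0 of 8 with FLX (1.71%). Genes called higher for IMN in Brd1+/- mice were 0.0165% of those tested. Since Gm26498 was chosen by this difference, neither share measures how unusual its call is. At an unadjusted p under 0.05, there were 4 members for genotype under FLX, where 16.6% of all genes were at that level, 1 for FLX in WT mice (16.8%) and 1 for IMN in Brd1+/- mice (9.30%). The last of these was Gm26498, in the comparison that chose it. There were 0 for genotype under vehicle (8.52%) and under IMN (3.58%), for IMN in WT mice (4.58%), for FLX in Brd1+/- mice (6.94%) and for the interactions with IMN (9.24%) and FLX (16.8%).

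**Figure D2:**
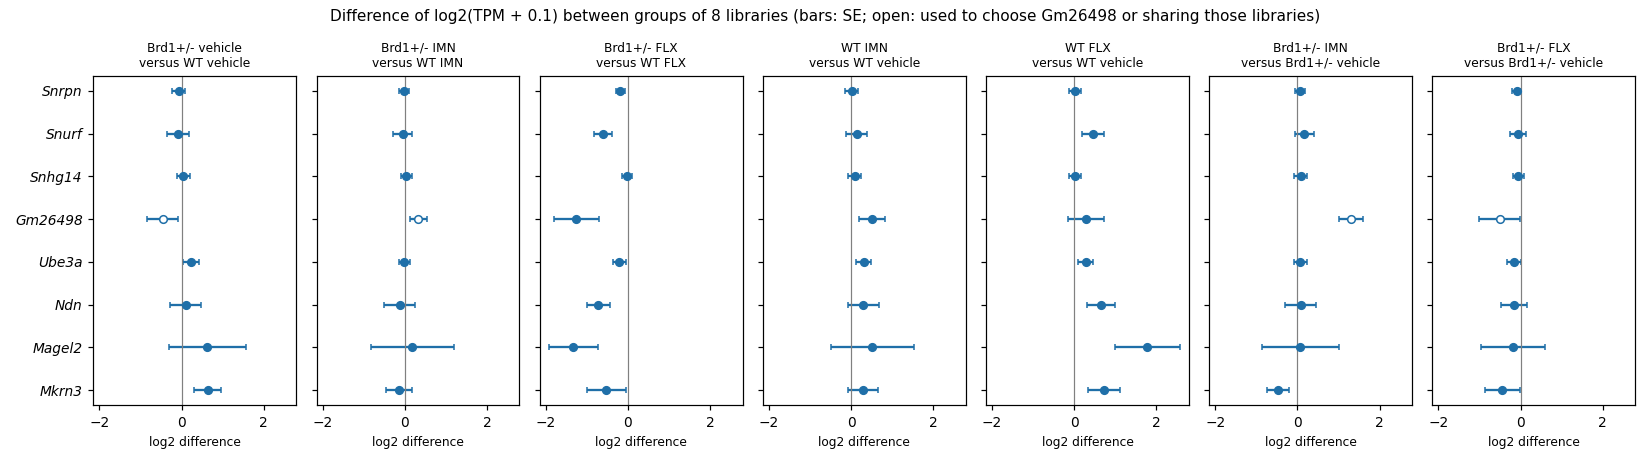
Difference of log2(TPM + 0.1) for each member in the 7 comparisons between groups of 8 libraries, with bars of 1 SE. Open symbols are Gm26498 in the comparison that chose it and in those sharing its libraries. Under FLX, Magel2 is at -1.33 for genotype and at 1.78 for drug in WT mice.

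The widest spread of differences between the genotypes was under FLX, where all 8 members were below 0 and the median difference was -0.56 on the log2 scale, against -0.056 over all genes tested. None was called. At the imprinting centre, Snurf was at -0.61 (SE 0.21, limma adjusted p = 0.158) and Snrpn at -0.18 (SE 0.11, adjusted p = 0.438). All exonic bases of Snurf also belong to Snrpn and to Gm38393, so its reads cannot be told apart from theirs. Gm38393 was at -1.01 (SE 0.34, adjusted p = 0.140). Whether Snurf and Snrpn differed unequally was not tested. The MAGE-family genes were at -0.72 for Ndn (SE 0.28, adjusted p = 0.2002) and -1.33 for Magel2 (SE 0.59, adjusted p = 0.266). Gm26498 was at -1.26 (SE 0.55, adjusted p = 0.254) and Mkrn3 at -0.52 (SE 0.48, adjusted p = 0.636). Ube3a was at -0.21 (SE 0.16, adjusted p = 0.559). Snhg14 was at -0.02 (SE 0.12, adjusted p = 0.957), and it turned to 0.052 after median-ratio scaling and 0.044 after quantile normalization.

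Hypothalamic and other subcortical markers also lay lower on the Brd1+/- side of this comparison. The summed level of 10 hypothalamic and other subcortical markers ran from 35.7 to 4727 TPM in WT FLX (median 211) and from 11.5 to 64.9 TPM in Brd1+/- FLX (median 28.5). Hcrt, which defines orexin neurons, was listed at 0 in all 8 Brd1+/- FLX libraries and likewise in all 8 Brd1+/- vehicle libraries. Of 7 such markers tested, 1, Fezf1, was lower in Brd1+/- FLX (-3.99, limma adjusted p = 0.0322) and 6 were at an unadjusted p under 0.05, with a median of -3.79. The 7 amygdala markers had a median of 0.58, with 1 at an unadjusted p under 0.05 and 0 called. With striatal, oligodendrocyte and hypothalamic marker scores in the fit, the difference was -0.059 for Ndn, -0.24 for Magel2, -0.96 for Snurf and -1.19 for Gm26498. The hypothalamic markers themselves differed in level between these groups, so this fit cannot tell genotype and tissue makeup apart. The cause was not tested. Among the libraries of the 35 alone, Ndn was at -0.58, Magel2 at -0.89, Snurf at -0.66 and Gm26498 at -1.64.

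FLX against vehicle in WT mice uses the same WT FLX libraries. Magel2 was at 1.78 (SE 0.79, limma adjusted p = 0.268) and Ndn at 0.65 (SE 0.34, adjusted p = 0.356). WT vehicle libraries of Magel2 lay at 0.333, 8.90 and 29.0 TPM for the lowest, the median and the highest, so the groups overlapped. All 8 members were above 0, with a median of 0.37 against 0.048 over all genes. The hypothalamic markers summed to 10.2 to 114.6 TPM in WT vehicle, a median of 48.8, below the WT FLX median of 211, and 4 of 8 tested were at an unadjusted p under 0.05. Oligodendrocyte markers, which Mkrn3 followed across libraries, had a median of 1.21, with 6 of 6 at that level and 0 called, and summed to 642 to 10381 TPM in WT vehicle and 1839 to 7968 TPM in WT FLX. With the marker scores in the fit, Magel2 was at 0.49 and Ndn at 0.23, and among the libraries of the 35 alone they were at 1.02 and 0.30.

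In the remaining comparisons the members' medians stood beside those of all genes as follows. All of these except IMN in WT mice use libraries that chose Gm26498, which is nevertheless included in the medians and counts. The share of all genes on each side of 0 was not worked out. For genotype under vehicle it was 0.069, with 5 of 8 above 0, and the median over all genes was 0.031. For genotype under IMN it was -0.016, with 3 of 8 above 0, against 0.0062. For IMN in WT mice it was 0.30, with 8 of 8 above 0, against -0.0024. No member passed in any of these. For FLX in Brd1+/- mice it was -0.16, with 0 of 8 above 0, against -0.044. For the genotype by FLX interaction it was -0.66, with 0 of 8 above 0, against -0.10, and this all-gene median was -0.018 after median-ratio scaling and 0.016 after quantile normalization. For the genotype by IMN interaction it was -0.11, with 3 of 8 above 0, against -0.030. Oligodendrocyte markers had a median of 1.51 for genotype under vehicle, -1.95 for the genotype by IMN interaction and -2.07 for the genotype by FLX interaction, with 6 of 6 at an unadjusted p under 0.05 and 0 called in each. Hypothalamic markers were at -3.70 in the last of these, with 7 of 9 at that level. Their part in the members' medians was not tested.

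Gm26498, a SNORD115 copy, was chosen for its difference between IMN and vehicle in Brd1+/- mice. Its lowest, median and highest library was 5.10, 8.60 and 12.8 TPM in Brd1+/- IMN and 1.66, 3.33 and 9.77 TPM in Brd1+/- vehicle. All 8 IMN libraries lay above 7 of the 8 vehicle libraries, which reached 4.14 TPM, and vehicle replicate 4 lay among the IMN libraries at 9.77 TPM. The difference on the log2(TPM + 0.1) scale was 1.298 (SE 0.29). Its identical partner Gm26230 differed by 0.94 and Gm24966, which can be told apart by its reads, by 0.51. In the other groups the Gm26498 medians were 4.36 TPM in WT vehicle, 6.50 in WT IMN, 6.74 in WT FLX and 2.80 in Brd1+/- FLX, and the lowest library of all, at 0.377 TPM, was in the last of these. Markers of other cells moved with this comparison. Oligodendrocyte markers had a median of -1.03, with 6 of 6 at an unadjusted p under 0.05 and 0 called, and their summed level was 1097 to 6458 TPM in Brd1+/- IMN against 2195 to 15522 TPM in Brd1+/- vehicle. Microglial markers were at -0.38 (3 of 4 at that level) and endothelial markers at -0.35 (2 of 4). With the striatal, oligodendrocyte and hypothalamic scores in the fit, Gm26498 was at 0.89, and the number of members called was 0 in that fit and with the replicate block.

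**Figure D3:**
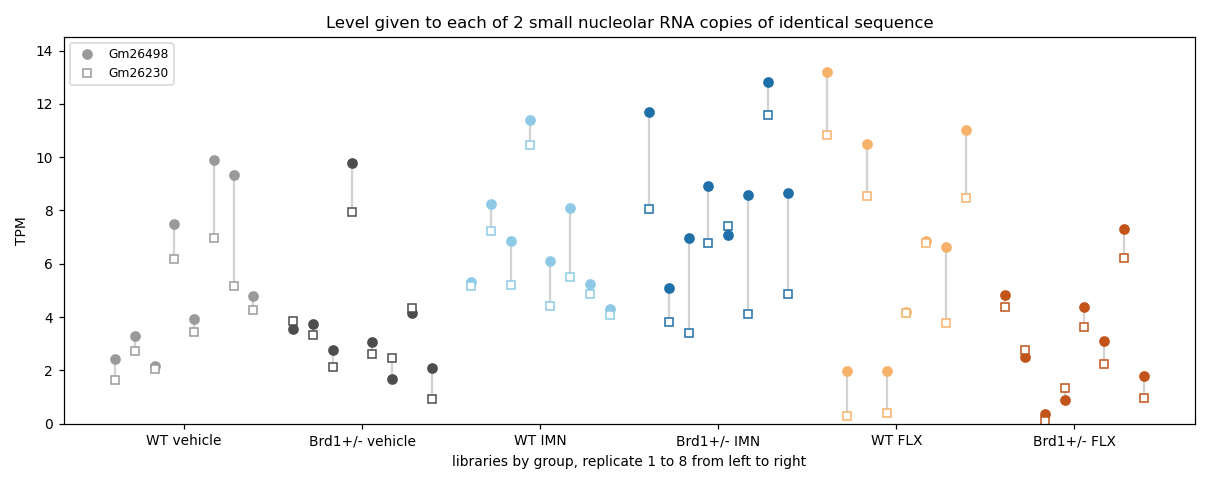
TPM listed for Gm26498 (filled) and for its identical partner Gm26230 (open) in each of 48 libraries, joined by a line, by group and replicate. Gm26498 is the higher in 42 of 48 libraries, and both copies are high in Brd1+/- vehicle replicate 4.

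Reads of identical copies cannot be told apart, so the sum of Gm26498 and Gm26230 is the quantity the sequence allows. The summed level averaged 9.46 ± 4.95 TPM in WT vehicle, 7.30 ± 4.58 in Brd1+/- vehicle, 12.8 ± 4.26 in WT IMN, 14.98 ± 5.03 in Brd1+/- IMN, 12.4 ± 8.06 in WT FLX and 5.85 ± 4.26 in Brd1+/- FLX. Brd1+/- IMN libraries summed to 8.93 to 24.4 TPM and Brd1+/- vehicle libraries to 3.00 to 17.7 TPM, so the sums overlapped. Over all SNORD115-length copies the means were 43.4 ± 17.0, 41.8 ± 15.6, 51.3 ± 14.1, 56.9 ± 13.8, 47.97 ± 17.1 and 36.3 ± 16.4 TPM in the same order of groups. Gm24966, Gm26498 and Gm26230 supplied 75.2% to 89.1% of these sums. Htr2c itself, whose mRNA holds the complementary site in 2 of 4 protein-coding transcripts, averaged between 60.05 and 83.9 TPM across the groups.

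Most of the other copies were at or near 0. Of the 134 SNORD115-length copies, 3 were above 0 in all 48 libraries and 83 were listed at 0 in all. Gm24966 averaged 28.2 TPM and exceeded Gm26498 in 48 of 48 libraries. The 134 copies have 54 distinct sequences, and 35 of them hold a 50-base window of their own while 99 do not. Of the 70 SNORD116-length copies, 0 were above 0 in all libraries and 28 were listed at 0 in all, with Gm26365 highest at 1.31 TPM. RNAs of this length are usually depleted when fragments are selected by size, and copies without their own window share reads.

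**Figure D4:**
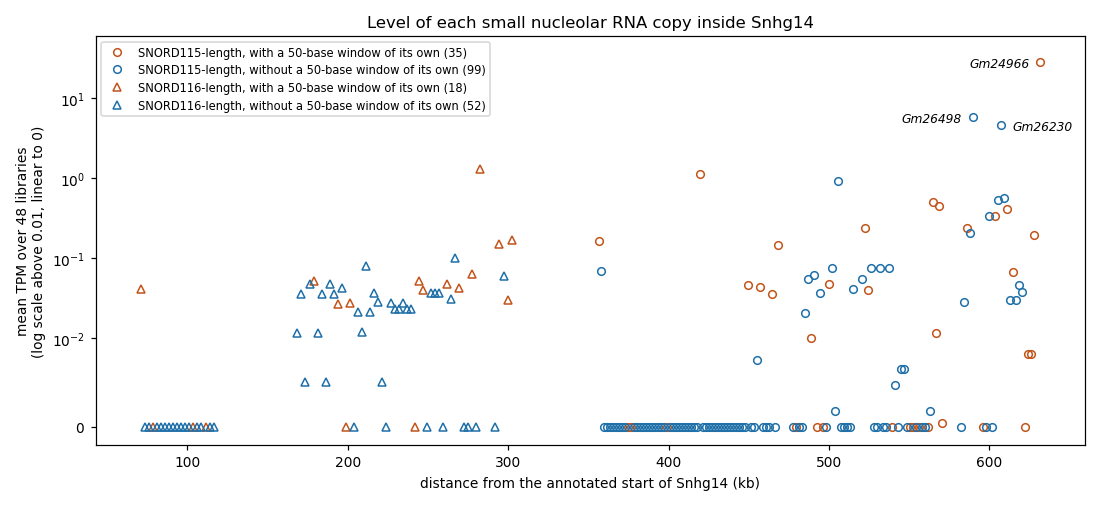
Mean TPM over 48 libraries (log axis above 0.01, linear to 0) of each small nucleolar RNA copy in the Snhg14 span against its distance in kb from the annotated Snhg14 start. The 3 copies with the highest level, Gm24966, Gm26498 and Gm26230, lie far from the start, at 632, 589.6 and 607 kb, and only the first has 50-base windows of its own.

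Deviations from the group means showed which members varied together from library to library. Over all 48 libraries, 15 of 28 pairs of members passed a permutation test with r above 0 and 1 with r below 0 (adjusted p under 0.05). These relations include differences between the sets of 35 and 13 libraries. That cut, by deviation of the striatal score from the group mean, was chosen after the data were seen. Relations were then tested within each set, as 200 relations adjusted together. In the set of 35, 6 of 28 pairs of members passed, all with r above 0, and in the other set, of which 12 libraries could be used, 0 of 28 did. Ndn and Magel2 were the closest pair, with r = 0.91 and rho = 0.90 (permutation p = 1e-05 for each, the smallest these permutations can give, adjusted p = 0.0004 for r and 0.0005 for rho). Without the pair of libraries farthest from the median of Ndn, r was 0.90, and within 3 ranges of sample codes it was 0.91 to 0.97. Ube3a went with Ndn at r = 0.74 and rho = 0.72 (permutation p = 1e-05 for each, adjusted p = 0.0004 and 0.0005), and r was 0.67 without the farthest libraries and 0.57 to 0.88 within the code ranges. With Magel2, Ube3a had r = 0.69 and rho = 0.67 (permutation p = 1e-05 and 5e-05, adjusted p = 0.0004 and 0.00143), 0.64 without the farthest libraries and 0.43 to 0.90 within the code ranges. Libraries high in Ndn and Magel2 were also high in Ube3a.

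Snhg14, which overlaps Ube3a on the other strand, followed it at r = 0.68 and rho = 0.70 (permutation p = 2e-05 for each, adjusted p = 0.000571 and 0.0008), with r = 0.65 without the farthest libraries and 0.49 to 0.95 within the code ranges. Reads of their shared bases could enter both genes. Snhg14 and Gm26498, host and small nucleolar RNA, had r = 0.53 and rho = 0.52 (permutation p = 0.00235 and 0.00268, adjusted p = 0.0366 and 0.0447), and r was 0.45 without the farthest libraries and 0.41 to 0.69 within the code ranges. Snrpn and Ube3a had r = 0.51 (permutation p = 0.00245, adjusted p = 0.0366) but rho = 0.44 did not pass (permutation p = 0.0153, adjusted p = 0.153). For them r was 0.38 without the farthest libraries and 0.26 to 0.72 within the code ranges.

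Some members varied with markers of other cells. Ndn followed the hypothalamic and subcortical score at r = 0.76 and rho = 0.77 (permutation p = 1e-05 for each, adjusted p = 0.0004 and 0.0005), with r = 0.70 without the farthest libraries and 0.65 to 0.81 within the code ranges. Magel2 had r = 0.64 and rho = 0.66 with the same score (permutation p = 2e-05 and 3e-05, adjusted p = 0.000571 and 0.001), with 0.57 without the farthest libraries and 0.65 to 0.77 within the code ranges. Ube3a had r = 0.59 and rho = 0.62 (permutation p = 0.00042 and 0.00026, adjusted p = 0.0084 and 0.00578), with 0.60 without the farthest libraries and 0.51 to 0.80 within the code ranges. Mkrn3 went with oligodendrocyte markers instead, at r = 0.78 and rho = 0.82 (permutation p = 1e-05 for each, adjusted p = 0.0004 and 0.0005), with 0.83 without the farthest libraries and 0.72 to 0.89 within the code ranges. Between the sets, Magel2 lay at 0.333 to 7.72 TPM in the 13 libraries above the gap and at 2.40 to 59.0 TPM in the 35, and Ndn at 65.4 to 188 and 163 to 564 TPM.

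**Figure D5:**
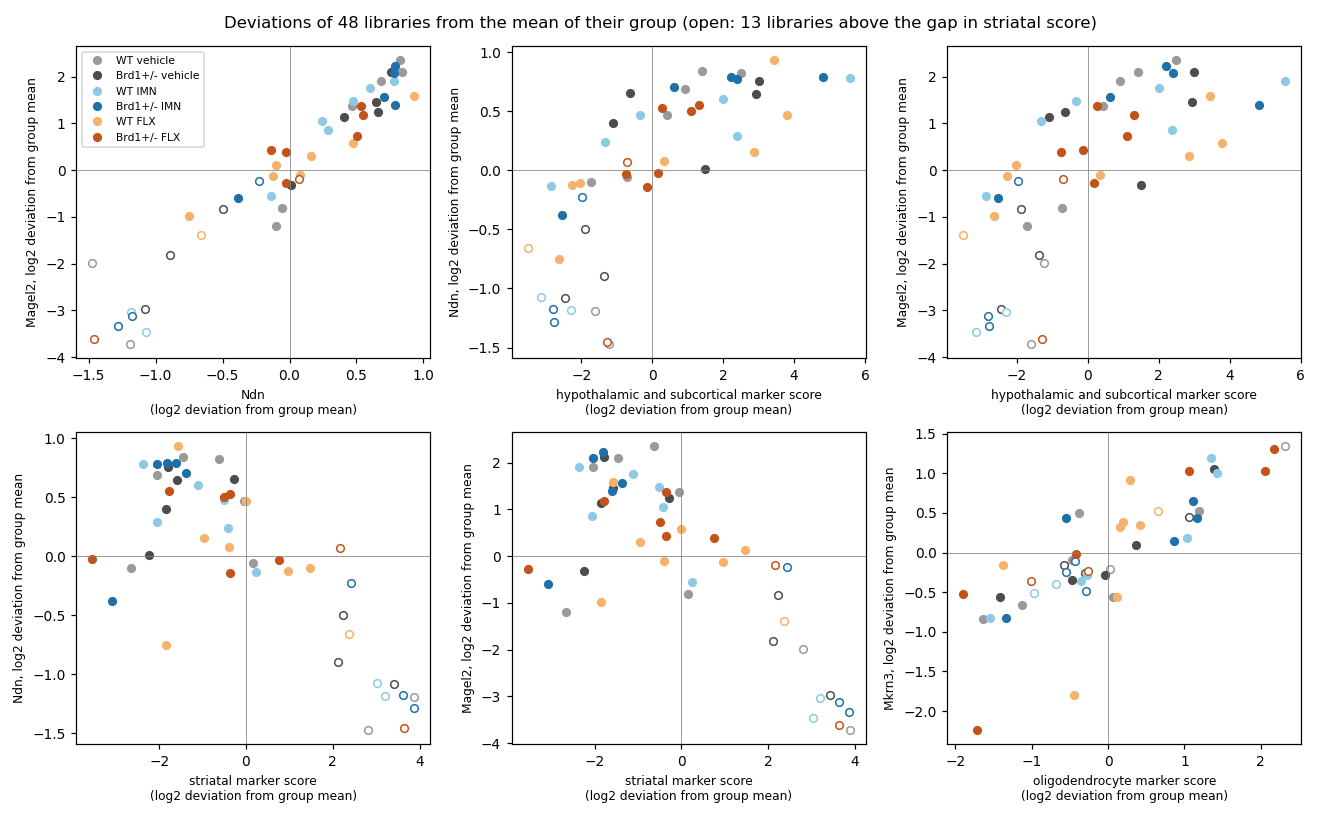
Log2 deviation of each of 48 libraries from its group mean, for Magel2 against Ndn, for Ndn and Magel2 against hypothalamic and striatal marker scores, and for Mkrn3 against the oligodendrocyte score. Open symbols are the 13 libraries above the gap in striatal score, which hold the lowest Magel2 values, and in the 35 filled libraries Magel2 follows Ndn at r = 0.91.

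The genes whose library-to-library pattern was most like each of 5 members, Snrpn, Snhg14, Ube3a, Ndn and Gm26498, were found among 19222 genes with a mean of at least 1 TPM, by the correlation of deviations over 48 libraries, which share tissue makeup. These are descriptions without a test. Ndn was closest to Tmem130 (r = 0.99, and 0.97 in the 35 libraries), followed by Resp18, Gprasp1, Tmx4 and Pnma3, all at 0.97 or above. Snrpn was closest to Syngr3, a synaptic vesicle protein (0.93, and 0.86 in the 35), followed by Gm5802, Chrnb2, Smim10l2a and Rab3a (0.89, and 0.72). Ube3a was closest to Epm2aip1 (0.84, and 0.78), followed by Gpr165, Ssh1, Pfdn4 and Slc9a7. Snhg14 was closest to Rian, another long imprinted transcript that hosts small nucleolar RNAs (0.83, and 0.72), followed by Thoc1, Cplane1, Gspt2 and Ddhd2. Gm26498 had the loosest likeness of these 5, with Aff4 at 0.69 (0.66 in the 35), followed by Afg3l2, B3galt6, Rabep1 and Zfp791.

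Genes around and related to the locus were set beside the members. Of 13 flanking genes, 12 were tested and 0 passed the limma test in any of the 9 comparisons, with 0 to 5 at an unadjusted p under 0.05. Over all genes tested, 3.58% to 16.8% were at that level, depending on the comparison. Among the abundant ones were Herc2 (61.8 ± 10.4 TPM, SD, n = 48) and Klf13 (58.5 ± 11.6 TPM). Of 21 partners and targets of the members' proteins and RNAs, all tested, 0 passed in any comparison and 0 to 4 were at an unadjusted p under 0.05, with Usp7 (143 ± 15.4 TPM), Vps35 (112 ± 11.8 TPM) and Vps29 (106 ± 21.8 TPM) the most abundant.

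Imprinted genes elsewhere did include calls. Of 40 listed, 37 were tested, and 4 were lower in Brd1+/- FLX than in WT FLX (1.38% of all genes tested were called lower). At an unadjusted p under 0.05 there were 18 of the 37, where 16.6% of all genes were at that level. Their median was -0.29 against -0.056 over all genes. Peg3, a zinc-finger gene, was at -0.86 (limma adjusted p = 0.0443) and its neighbour Usp29 at -1.44 (0.0322), while Peg13 was at -0.62 (0.0138) and Inpp5f at -0.47 (0.0496). Peg13, named because it was called, ran from 81.7 to 128 TPM in Brd1+/- FLX and from 146 to 213 TPM in WT FLX. These ranges do not overlap, but the share of all genes that separate so was not worked out. Peg13 and Inpp5f also passed in the genotype by FLX interaction, each at -0.73 (limma adjusted p = 0.0090 and 0.0227), where 1.53% of all genes were called lower. With the marker scores in the fit, 0 of these 4 passed in Brd1+/- FLX against WT FLX, at -0.30 for Peg3, -0.99 for Usp29, -0.37 for Peg13 and -0.20 for Inpp5f. Leaving out 1 library at a time kept the call of Peg13 in 16 of 16 repeats, of Usp29 in 7, of Peg3 in 5 and of Inpp5f in 3.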

How the data were processed

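Total RNA of 1 mm punches from the right amygdala was sequenced by the authors as 50-base single-end reads. They aligned them with HISAT2 2.1.0 and estimated expression with StringTie 1.3.4 on GRCm38. The deposited values are TPM per gene and library, and carry no read depth. Groups came from the titles. The design text names other regions and another sequencer, and the sample labels were followed. Of 52636 gene identifiers, 99.7% were found in GENCODE M21. Columns without a sample numbered 0.

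Values were tested as log2(TPM + 0.1) with limma 3.58.1 (trended eBayes) in R 4.3.3, on genes at 0.1 TPM or more in at least 8 libraries of the groups compared, with Benjamini-Hochberg adjustment over all genes tested. A fold on this scale understates changes of low genes. p-values measure the spread between libraries, which come from separate mice per the study. Members, lists and named genes were chosen with earlier results of these data known. Named are the members, Brd1, list genes called in any of the 9 comparisons plus the 3 most abundant of each list, the most abundant Snhg14-span genes, and the 5 genes most like each of 5 members. Of the genes this rule takes, 1 is not reported here. Marker scores are mean log2 values of fixed lists. The scripts were tested on simulated data. Alternatives varied the pseudocount, filter, scaling, prior, libraries fitted, replicate block, code range, marker covariates and each library.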

Additional observations from a re-analysis of the deposited data

Results flagged for a closer look

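In 4 of the 48 combinations of 8 members and 6 groups, 1 library stood far from the other 7 by Dixon's criterion, which chance reaches in about 1 group in 20. Gm26498 in Brd1+/- vehicle had replicate 4 at 9.77 TPM, with the next library at 4.14 TPM. Magel2 in WT FLX had replicate 1 at 59.0 TPM, with the next at 29.3 TPM. Snurf in Brd1+/- IMN had replicate 7 at 27.5 TPM, with the next at 15.97 TPM. Mkrn3 in WT vehicle had replicate 1 at 2.24 TPM, with the next at 1.22 TPM. That library also had the highest oligodendrocyte and choroid plexus scores of its group.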

How the results depend on the processing

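The number of members called stayed at 0 under every alternative in 8 of the 9 comparisons. In Brd1+/- IMN against Brd1+/- vehicle it went from 1 to 0 with a pseudocount of 0.01 or 1, a filter of 1 TPM, 1 fit of all 48 libraries, the replicate block, the marker scores as covariates, or only the 35 libraries below the gap in striatal score, an alternative chosen after seeing the data, and it ran from 0 to 1 over the repeats leaving out 1 library, with 1 only without Brd1+/- vehicle replicate 4 or Brd1+/- IMN replicate 2. The cause was not tested. Replicate numbers were only shared: 0 to 4 of 8 pairs per comparison had deviations correlating over 0.1, and the block gave 0 members called there. Snhg14 in Brd1+/- FLX against WT FLX changed sign to 0.052 with median-ratio scaling, 0.044 with quantile normalization and 0.012 with the marker scores, and ran from -0.085 to 0.027 leaving out 1 library, above 0 without Brd1+/- FLX replicate 2, 4 or 5 or WT FLX replicate 1 or 8. Ube3a changed sign to 0.063 with the marker scores. For Gm26498 in Brd1+/- IMN against vehicle the log2 difference ran from 0.89 to 1.42 over settings and from 1.16 to 1.51 leaving out 1 library. With no read depth in TPM, small differences in low genes such as Mkrn3 cannot be judged against counting error.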

Other observations

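Gm38393, which shares exonic bases with Snrpn and Snurf, had a gap in its levels across libraries, noticed after its values were seen. In 14 of 48 libraries it was listed at 75.0 to 114 TPM and in the others at 17.2 to 54.5 TPM. The libraries above the gap numbered 2 in WT vehicle, 1 in Brd1+/- vehicle, 4 in WT IMN, 1 in Brd1+/- IMN, 5 in WT FLX and 1 in Brd1+/- FLX. No test of the gap was made.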
